A study of Mus musculus with 6 samples.

Results

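Matrix metalloproteinase (Mmp), Adamts protease and tissue inhibitor of metalloproteinases (Timp) transcripts were followed in a cultured mouse line of undifferentiated pleomorphic sarcoma (UPS). Members were the protein-coding genes of the GENCODE M21 annotation whose symbols were Mmp or Adamts followed by a number, or Timp1 to Timp4. This rule took 45 of the 55471 genes in the deposited count table, of which 22 were Mmp, 19 Adamts and 4 Timp genes. Mmp1a matched by symbol but is annotated as a polymorphic pseudogene and was not a member. UPS is a soft-tissue sarcoma without a clear line of differentiation, and the cells of both groups were labelled as a metastatic sarcoma line grown in DMEM with fetal bovine serum. The control group had the genotype WT and the other group the genotype Setd1a Knock Out, with 3 libraries in each, numbered 1 to 3. Setd1a encodes a catalytic subunit of the COMPASS complexes, which methylate histone H3 at active promoters. The titles also carry a tag, AAV2 in every control library and another (in RNA_seq_1_1350, for example) in every knockout library, so whatever the tags stand for and the knockout cannot be told apart. The labels do not say how the knockout was made, or whether it was a single clone, and give no origin of the replicates; the p-values therefore reflect only how these libraries vary, which may be technical.

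Mmp and Adamts proteins are secreted or membrane-bound zinc proteases that cut the proteins of the extracellular matrix. Most are made as inactive precursors, and Timp proteins block the active enzymes by binding in the catalytic cleft. Mesenchymal cells and the sarcomas that resemble them are known sources of both, and Timp2 has a second role, since together with the membrane protease Mmp14 it holds the precursor of Mmp2 at the cell surface for cleavage.

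Library totals lay between 17749533 and 18272622 counts, so that a level of 1 CPM (counts divided by library size and scaled) stood for 17.8 to 18.2 counts. Setd1a itself was lower in every knockout library, at 71.0, 75.3 and 73.5 CPM in control libraries 1, 2 and 3 and 53.2, 68.7 and 56.2 CPM in knockout libraries (exact two-sided permutation p = 0.1, the smallest attainable with 3 against 3); its reads are uncertain, since 51.8% of its exonic bases are shared with Gm49388. Markers of mesenchyme were abundant, with 9 of 10 tested and Vim at 6146 ± 467 CPM in control libraries and 5429 ± 347 CPM in knockout libraries (SD, n = 3). The mesenchyme list summed to 6856, 7113 and 7526 CPM in control libraries 1 to 3 and 6794, 6043 and 6063 CPM in knockout libraries, without overlap. Most of each sum was Vim, which itself overlapped between groups (5642 CPM in control library 1, 5824 CPM in knockout library 1). Of the 9 tested genes of the list, 8 had a log2 change below 0, while 50.2% of all genes lay above 0. Of the 9, 0 passed either edgeR test, and 1 was lower without overlap, beside 7.77% of all genes. Markers of other cells were scarcer. Of 10 macrophage markers 3 were tested, with sums of 21.7 to 23.5 CPM in control libraries and 21.2 to 29.0 CPM in knockout libraries, and Adgre1 had 0 counts. Of 8 endothelial markers 1 was tested, with sums of 1.61 to 3.25 and 3.22 to 5.01 CPM. Of 8 epithelial markers 3 were tested, with sums of 50.9 to 86.2 and 46.3 to 86.5 CPM, nearly all from Krt8 and Krt18. Neutrophil markers summed to 1.44 to 3.70 and 1.78 to 6.87 CPM, with S100a9 and Csf3r at 0, and T cell markers to at most 0.110 CPM. Libraries also differed in 12 interferon response genes, whose mean level was 3.89, 3.33 and 2.68 log2 CPM in control libraries 1 to 3 and 3.28, 5.21 and 5.17 log2 CPM in knockout libraries. The part of these differences in the results below was not tested.

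In a secondary test that pairs libraries of the same number, the gelatinase gene Mmp2 and the inhibitor gene Timp3 rose in the knockout libraries. The main test, without pairing, called neither. The most abundant members, Timp1, Timp2 and Mmp14, passed neither test, with log2 changes without pairing of -0.16, -0.02 and 0.06. Of the 45 members, 23 passed the filter on low counts, namely 10 Mmp, 10 Adamts and 3 Timp genes. Without pairing, edgeR's quasi-likelihood test called 0 of the 23 higher and 0 lower at an adjusted p under 0.05, and it called 0% of all 13044 genes in either direction. The unadjusted p was under 0.05 for 5 members, all higher, which is 21.7% of the members tested beside 5.50% of all genes for the higher direction and 4.51% for the lower. Of the 5, Mmp17 reached the filter's level in 2 control libraries and all 3 knockout libraries, so it was tested only because of the group where it is high; without it 4 of 22 remain. DESeq2 and limma-voom also called 0 members. The paired edgeR test compares libraries of the same number, a pairing taken from the data and not from the labels. Its p-values may be too small, since the same counts were used to choose the pairing. The paired test called 2 members higher and 0 lower, or 8.70% of the 23. Over all genes it called 1.43% higher and 0.851% lower. Its unadjusted p was under 0.05 for 6 of the 23 members, all higher, or for 5 of 22 without Mmp17. Over all genes the shares were 9.94% in the higher direction and 9.62% in the lower. Throughout, "rose" and "fell" refer to this paired test with Benjamini-Hochberg adjustment over all 13044 genes.

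The median log2 change of the 23 members was 0.14 without pairing, beside 0.000662 over all genes tested, and 15 of the 23 lay above 0, or 65.2% beside 50.2% of all genes. Among the 12 members with a mean of at least 5 CPM the median was -0.0056. Groups did not overlap for 5 members, all higher in the knockout (Mmp2, Mmp17, Adamts5, Adamts6 and Adamts8), or 21.7% beside 7.49% of all genes (without Mmp17, 4 of 22, or 18.2%); 0 members were separated in the lower direction, beside 7.77% of all genes. Within pairs, 9 members were higher in the knockout in all 3, or 39.1% beside 19.9% of all genes, and 3 were lower in all 3, or 13.0% beside 21.6%. Mmp17, tested only because of the group where it is high, is among these 9 and among the 15 above 0, and it enters the median. A log2 change of at least 1 was measured for 2 members, Adamts5 and Adamts8, beside 1.73% of all genes, and both were at about 1 CPM in control libraries. These figures describe 23 genes of unequal depth and are not a test of the list.

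**Figure D1:**
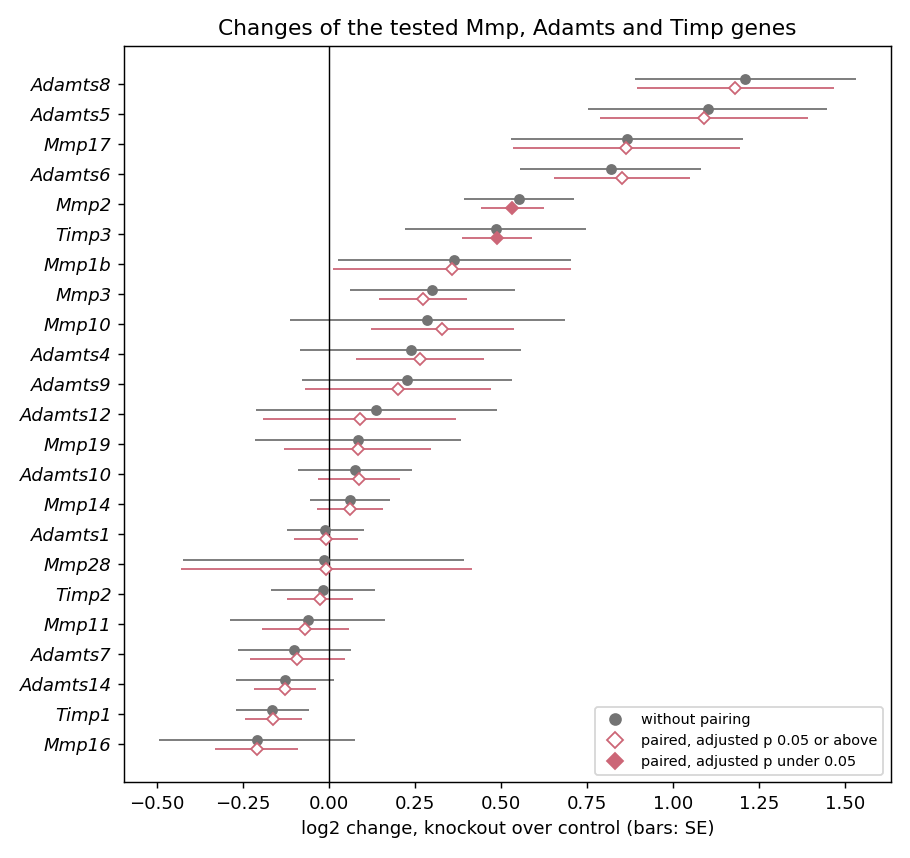
Log2 change of the 23 tested members (knockout over control, bars SE) from the test without pairing (grey circles) and the paired test (diamonds, filled where the adjusted p was under 0.05). Only the Mmp2 and Timp3 diamonds are filled, while Adamts8 and Adamts5 lie farthest to the right with the wide bars of genes at about 1 CPM.

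Scaled to exon length, the inhibitor genes Timp1 and Timp2 were the most abundant members. In CPM per kilobase of exon, Timp1 had 435 ± 35.1 in the controls and Timp2 146 ± 18.3 (SD, n = 3), and these 2 genes made up 86.5% of the summed level of all members. Mmp14 followed at 29.3 ± 2.79 and Mmp2 at 18.3 ± 1.66. Mmp3 (8.76 ± 1.79), Adamts1 (8.03 ± 0.713) and Adamts14 (8.01 ± 1.09) did not differ beyond their spread. Timp3 had 4.22 ± 1.36 and Mmp11 3.19 ± 0.706, again within their spread, and the other 14 tested members lay under 2. In the knockouts the means were 389 ± 12.2 for Timp1, 145 ± 25.95 for Timp2, 30.5 ± 2.74 for Mmp14 and 26.8 ± 6.28 for Mmp2, of which the last pair did not differ beyond their spread.

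**Figure D2:**
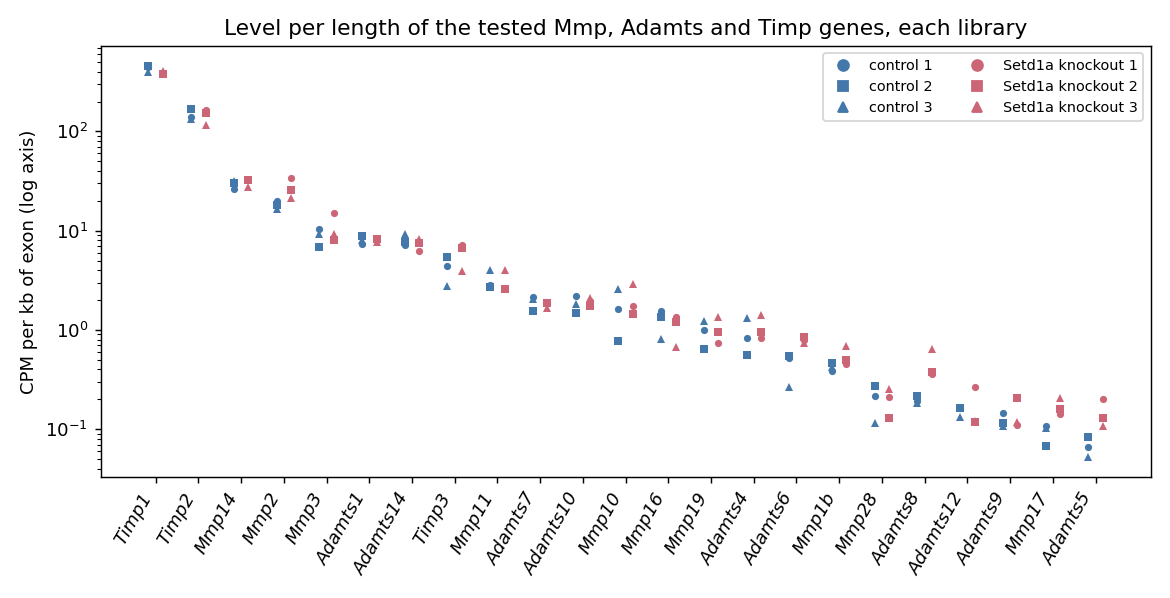
Level of each tested member in every library, in CPM per kilobase of exon on a log axis, ordered by the control mean (blue, control; red, knockout; the symbol gives the replicate number). Timp1 is highest, with a control mean of 435, and the 2 colours overlap for most genes.

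Among the gelatinases, which cut denatured collagen and basement membrane collagen, Mmp2 (ENSMUSG00000031740, chromosome 8, 92827291 to 92853420 of GRCm38, plus strand) carried almost all the transcript. It stood at 67.3, 61.2 and 56.1 CPM in control libraries 1 to 3 and at 113, 86.1 and 71.4 CPM in knockout libraries 1 to 3. Every knockout library lay above every control library, and the widest gap was in pair 1. Mmp2 rose by a log2 amount of 0.53 ± 0.09 (SE, paired, adjusted p = 0.0289; higher in 3 of 3 pairs). Without pairing the log2 change was 0.55 ± 0.16 (SE, adjusted p = 0.308). The paired call was lost without pair 3 (adjusted p = 0.0611), where 0 of all genes were called, and it held without pair 1 (adjusted p = 0.0145) and without pair 2 (adjusted p = 0.0276). The knockout library with the highest Mmp2, number 1, had the lowest level of interferon response genes among the knockouts (3.28 log2 CPM). The control library with the highest Mmp2, also number 1, had the highest such level among the controls (3.89 log2 CPM). A link between the levels was not tested. Mmp9, the other gelatinase, was too low to be tested, with 2, 1 and 1 counts in the controls and 6, 3 and 5 in the knockouts. With no low-count filter its adjusted p was 0.679.

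Neither partner of Mmp2 in its activation complex passed the test. Mmp14 (chromosome 14, 54431612 to 54445364), the membrane-type protease that cleaves the Mmp2 precursor, stood at 156, 179 and 188 CPM in control libraries and 191, 192 and 163 CPM in knockout libraries, so the groups overlapped (log2 change 0.06 ± 0.12 (SE) without pairing, adjusted p = 0.944). Its ratio within pairs went from 0.29 in pair 1 to 0.10 in pair 2 and -0.20 in pair 3 on the log2 scale. Timp2 (chromosome 11, 118301069 to 118355740) stood at 544, 650.1 and 515 CPM in control libraries and 645, 594 and 449.9 CPM in knockout libraries, with a log2 change of -0.02 ± 0.15 (SE, adjusted p = 0.991). Per length, the ratio of Mmp2 to Timp2 was 0.143, 0.109 and 0.126 in the controls and 0.203, 0.168 and 0.183 in the knockouts. These ratios did not overlap between the groups (exact two-sided permutation p = 0.1, as small as 3 against 3 allows). Mmp2 by itself did not overlap, so these ratios are not a separate result. The ratios of Mmp14 to Timp2 did overlap, at 0.187, 0.180 and 0.239 against 0.194, 0.211 and 0.237.

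Timp3 was the inhibitor that rose. It encodes the member of its family that stays bound to the matrix and also inhibits Adamts and ADAM proteases (chromosome 10, 86300372 to 86349506, plus strand). Its level was 36.2, 44.3 and 22.5 CPM in control libraries and 57.8, 54.7 and 31.6 CPM in knockout libraries. The groups overlapped, since libraries numbered 3 were low in both, but each knockout library lay above the control of its own number. The paired log2 change was 0.49 ± 0.10 (SE, adjusted p = 0.0422; higher in 3 of 3 pairs), and without pairing it was 0.48 ± 0.26 (SE, adjusted p = 0.592). The paired adjusted p was 0.0443 without pair 1, 0.0469 without pair 2 and 0.0888 without pair 3. Of the exonic bases of Timp3, 21.3% are shared with Syn3 on the opposite strand, which held 11 counts in all libraries together.

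Timp1 (chromosome X, 20870166 to 20874735), the inducible inhibitor with effects on cell survival, stood at 399, 409.9 and 351 CPM in control libraries and 342, 336 and 357 CPM in knockout libraries. Its log2 change of -0.16 ± 0.10 (SE) did not pass the test (adjusted p = 0.690 without pairing and 0.322 with it). Timp4, the inhibitor best known from heart and brain, had 0 counts in every library.

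**Figure D3:**
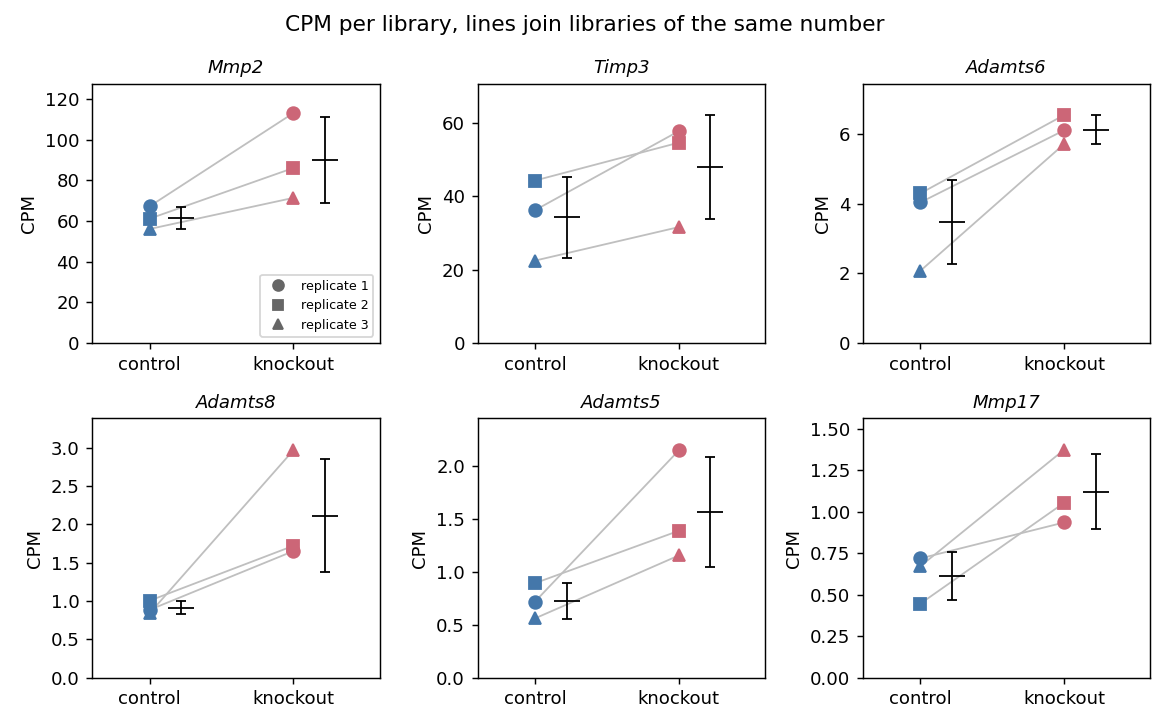
CPM in each library for Mmp2, Timp3, Adamts6, Adamts8, Adamts5 and Mmp17, with grey lines joining libraries of the same number and black bars giving the group mean and SD (n = 3). Every line goes up, and the groups overlap for Timp3 alone.

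Collagenase, stromelysin and matrilysin genes lie side by side on chromosome 9, and most held few or 0 counts in these cells. Between 7272514 and 7699585 of GRCm38 the cluster holds 9 members, Mmp13, Mmp12, Mmp1b, Mmp3, Mmp10, Mmp8, Mmp27, Mmp20 and Mmp7, of which 3 were tested. Mmp3, stromelysin-1, which cuts proteoglycans and fibronectin and activates other precursors, was the most abundant, at 18.5, 12.2 and 16.6 CPM in control libraries and 27.3, 14.4 and 16.6 CPM in knockout libraries. Its log2 change was 0.30 ± 0.24 (SE, adjusted p = 0.780), and the only knockout library above all controls was number 1; without that library the log2 change was -0.02. Mmp10, stromelysin-2, stood at 2.82, 1.34 and 4.43 CPM against 3.03, 2.50 and 4.95 CPM, with overlapping groups (log2 change 0.29 ± 0.40 (SE), adjusted p = 0.921). Mmp1b, which is near-identical in part to Mmp1a so that its reads may be split, held 10 to 12 counts in the controls and 12 to 18 in the knockouts.

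Mmp13, the main interstitial collagenase of the mouse, was under the filter but did not overlap between groups, with 6, 5 and 6 counts in the controls and 24, 9 and 22 in the knockouts. With no low-count filter its log2 change was 1.64 and its adjusted p 0.130. It passed the filter in the paired test without pair 2, where it was called (log2 change 1.91, adjusted p = 0.0431), but the filter then let it in through the knockout libraries, where it is high. Mmp12, macrophage elastase, held 1 count in the controls together and 3 in the knockouts. Mmp27 held 1 count in all. Mmp7, Mmp8 and Mmp20, known from epithelium, neutrophils and tooth enamel, had 0 counts in every library, which allows a level of up to 0.165 to 0.168 CPM (3 counts) in a library; such limits cover counting error only.

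Promoter windows of the cluster differed in base composition and in AP-1 letters from those of the other members with a window. RefSeq windows of GRCm38.p6, from 250 bases before to 50 after each start, were at hand for 31 members, 9 of them in the cluster. The AP-1 letters TGACTCA or TGAGTCA, which are each other's reverse complement and so cover both strands, occurred in windows of 6 of the 9 cluster genes (Mmp13, Mmp1b, Mmp3, Mmp10, Mmp12 and Mmp7). Windows were not at hand for Mmp2, Mmp17, Adamts5, Adamts6 and Adamts8, the tested members that did not overlap between groups. By window, the letters occurred in 6 of 11 in the cluster, in 0 of 23 of the 22 other members and in 5.20% of all 32851. The cluster windows held 37.7% to 52.0% G and C and those of the 22 other members 53.3% to 80.0%, beside a median of 52.7% over all windows. To show where the letters lie, the 100 bases before the start are given for Mmp13, Mmp3 and Mmp10, the cluster genes described above other than Mmp1b, whose reads may be split. Timp3, a member that rose, is given for contrast, with the 100 bases before its GENCODE start. All are read 5′ to 3′ on the gene's strand from RefSeq windows of GRCm38.p6, with the AP-1 letters in capitals.
Mmp13 (chr9:7272414-7272513, plus strand): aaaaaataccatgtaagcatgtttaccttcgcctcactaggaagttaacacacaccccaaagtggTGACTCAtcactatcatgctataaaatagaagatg
Mmp3 (chr9:7445722-7445821, plus strand): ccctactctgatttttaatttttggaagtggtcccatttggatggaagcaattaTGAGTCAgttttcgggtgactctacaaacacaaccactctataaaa
Mmp10 (chr9:7502242-7502341, plus strand): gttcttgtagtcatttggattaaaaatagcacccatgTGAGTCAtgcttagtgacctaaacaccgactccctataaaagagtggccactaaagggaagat
Timp3 (chr10:86300272-86300371, plus strand): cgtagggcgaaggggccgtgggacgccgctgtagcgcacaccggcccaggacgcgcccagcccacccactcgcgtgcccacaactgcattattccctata
In Mmp13 the letters began 35 bases before the start, in Mmp3 46 and in Mmp10 63, and the Timp3 stretch held none. A match of letters is not a bound site. Among the 12 AP-1 and ETS genes, Fosl1 and Jun were chosen here after their values were seen. Fosl1 averaged 427 ± 11.3 CPM in control libraries and 440.5 ± 30.1 CPM in knockout libraries (SD, n = 3). Jun averaged 291 ± 17.1 and 249 ± 34.97 CPM. Neither passed the paired test (adjusted p = 0.816 and 0.131). The reads of Fosl1 are uncertain, since 57.2% of its exonic bases are shared with Ccdc85b on the opposite strand.

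Other membrane-type proteases were expressed far below Mmp14. Mmp16, a transmembrane protease known from nervous tissue and mesenchyme, stood at 13.3, 11.8 and 6.95 CPM in control libraries and 11.6, 10.3 and 5.88 CPM in knockout libraries. It was lower in each pair by similar amounts, -0.20, -0.19 and -0.24 on the log2 scale, but did not pass the paired test (log2 change -0.21 ± 0.12 (SE), adjusted p = 0.379). Mmp17, which is tethered by a GPI anchor, had 13, 8 and 12 counts in the controls and 17, 19 and 25 in the knockouts, without overlap. Its paired log2 change of 0.86 ± 0.33 (SE) had an adjusted p of 0.190. Mmp15, Mmp24 and Mmp25 held 22, 19 and 5 counts in all libraries together and were not tested.

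The remaining Mmp genes showed no separation between the groups. Mmp11, stromelysin-3, a stromal protease that is activated inside the cell by furin, stood at 7.97, 7.48 and 11.1 CPM against 7.21, 7.16 and 11.05 CPM (log2 change -0.06 ± 0.23 (SE), adjusted p = 0.974). Mmp19 averaged 3.38 ± 1.02 and 3.59 ± 1.11 CPM (SD, n = 3), and 22.3% of its exonic bases are shared with Tmem198b on the opposite strand, which held 2914 counts to its 377. Mmp28, epilysin, averaged 0.780 ± 0.309 and 0.772 ± 0.250 CPM. Mmp23 held 42 counts in all and was not tested, and Mmp21 had 0.

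**Figure D4:**
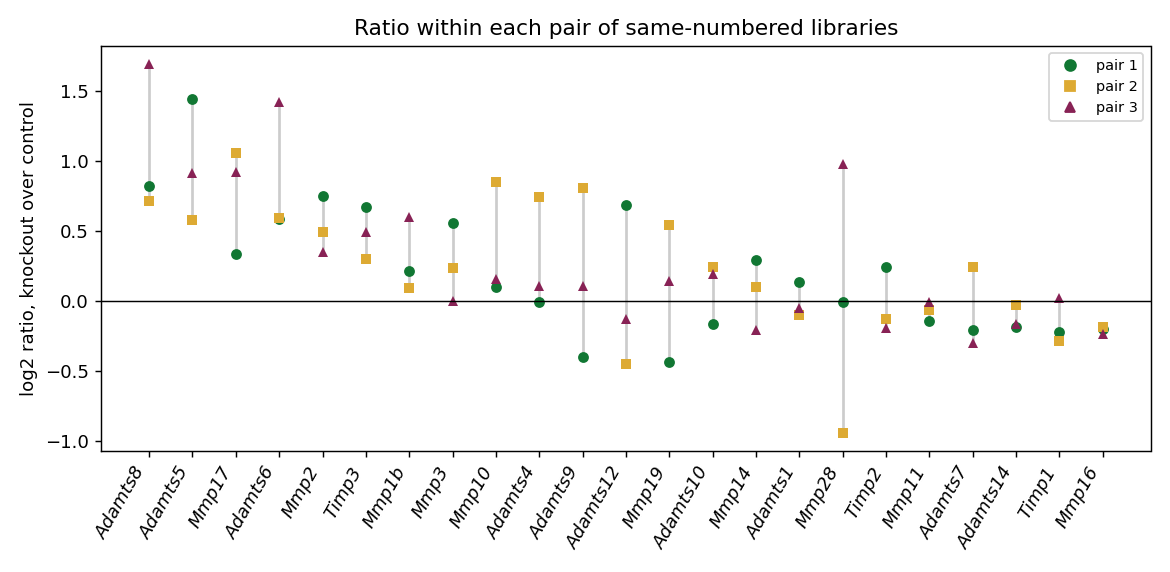
Log2 ratio of knockout to control within each pair of same-numbered libraries for the 23 tested members, ordered by their change without pairing; grey lines span the 3 pairs. The 9 genes from Adamts8 to Mmp10 lie above 0 in all pairs, and Mmp28 spans -0.94 to 0.98.

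Adamts proteases of the proteoglycanase branch, which cut aggrecan and versican, were split by abundance. Adamts1 (chromosome 16, 85793827 to 85803113), the most abundant of them, stood at 38.9, 46.5 and 42.4 CPM in control libraries and 42.8, 43.2 and 40.8 CPM in knockout libraries (log2 change -0.01 ± 0.11 (SE), adjusted p = 0.991). Its chromosomal neighbour Adamts5 (chromosome 16, 85856173 to 85901828), the main aggrecanase of mouse cartilage, had 13, 16 and 10 counts in the controls and 39, 25 and 21 in the knockouts. The Adamts5 groups did not overlap, yet at this depth the paired log2 change of 1.09 ± 0.30 (SE) had an adjusted p of 0.0882, beside 0.332 without pairing. Adamts8 (chromosome 9, 30942562 to 30963838), a protease also described as an inhibitor of vessel growth, had 16, 18 and 15 counts against 30, 31 and 54, again without overlap. Its paired log2 change of 1.18 ± 0.29 (SE) had an adjusted p of 0.0635, beside 0.244 without pairing. The paired test called Adamts8 without pair 1 (adjusted p = 0.00856) and without pair 2 (adjusted p = 0.0494) and not without pair 3 (adjusted p = 0.207). Of its exonic bases 10.6% are shared with Gm29724 on the opposite strand, which held 2, 1 and 0 counts in the controls and 7, 3 and 5 in the knockouts. Adamts4 averaged 4.35 ± 1.88 and 5.13 ± 1.54 CPM and Adamts9 1.86 ± 0.314 and 2.17 ± 0.812 CPM (SD, n = 3), and both overlapped between groups. Adamts20 held 39 counts in all and Adamts15 held 2.

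Adamts6 and Adamts10 act on fibrillin microfibrils. Adamts6 (chromosome 13, 104287835 to 104496695) stood at 4.04, 4.30 and 2.07 CPM in control libraries and 6.11, 6.55 and 5.72 CPM in knockout libraries, so that all knockout libraries lay above all controls. Its paired log2 change was 0.85 ± 0.20 (SE, adjusted p = 0.0580), and it was 0.82 ± 0.26 without pairing (SE, adjusted p = 0.335). The paired test called it without pair 1 (adjusted p = 0.00228) and without pair 2 (adjusted p = 0.0431) and not without pair 3 (adjusted p = 0.139). Adamts10 stood at 18.04, 12.17 and 15.02 CPM in control libraries and 16.1, 14.4 and 17.2 CPM in knockout libraries, with overlapping groups (log2 change 0.08 ± 0.17 (SE), adjusted p = 0.955).

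Of the procollagen N-propeptidases, which trim fibrillar collagens, Adamts14 was the one expressed, at 37.2, 39.8 and 47.97 CPM in control libraries and 32.6, 38.9 and 42.8 CPM in knockout libraries. It was lower in each of the 3 pairs but did not pass the paired test (log2 change -0.13 ± 0.09 (SE), adjusted p = 0.494). Adamts2 held 25 counts in all and Adamts3 held 4. Adamts7 and Adamts12, which cut cartilage oligomeric matrix protein, averaged 12.1 ± 2.03 and 1.67 ± 0.186 CPM in control libraries and 11.3 ± 0.674 and 1.84 ± 0.936 CPM in knockout libraries (SD, n = 3). Adamts12 without knockout library 1 had a log2 change of -0.36 in place of 0.14. Adamts17 held 7 counts and Adamts16 held 1, while Adamts13, the liver-derived protease of von Willebrand factor, Adamts18 and Adamts19 had 0.

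Other genes of the matrix protease system were read from the same fits, in 5 lists of 74 genes of which 57 were tested. The paired test called 6 higher and 1 lower, or 10.5% and 1.75% of them, beside 1.43% and 0.851% of all genes. These lists were chosen with earlier results of these data known, so the shares are not a test of the lists. Without pairing edgeR called 0 of them, with an unadjusted p under 0.05 for 8 higher and 3 lower (beside 5.50% and 4.51% of all genes), DESeq2 called 3 higher and 1 lower, and limma-voom called 0. In the plasminogen activator list, 3 of 7 tested genes rose and 0 fell, and the median log2 change without pairing was 0.15, beside 0.000662 over all genes tested. Serpinb2, an inhibitor of plasminogen activators, rose (52.2 ± 9.80 against 80.2 ± 17.3 CPM, SD, n = 3, paired adjusted p = 0.0368). So did the activator gene Plat (30.1 ± 3.71 against 41.3 ± 5.56 CPM, SD, n = 3, paired adjusted p = 0.0397), though this call was lost without pair 2 (adjusted p = 0.204) and without pair 3 (adjusted p = 0.0904). Serpinb2 inhibits the step that Plat carries out, so the genes that rose include an activator and an inhibitor of it. The urokinase gene Plau averaged 218 ± 34.9 and 177 ± 27.8 CPM and did not pass (paired log2 change -0.29 ± 0.08 (SE), adjusted p = 0.0906).

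Among 15 tested regulators of protease activation and clearance, 1 rose and 0 fell (median log2 change 0.14). That gene was Htra1, a secreted serine protease, which rose from 125 ± 25.4 to 165 ± 17.3 CPM (SD, n = 3; paired adjusted p = 0.0361). Its groups overlapped, with 152.7 CPM in control library 2 and 150.1 CPM in knockout library 1. The edgeR adjusted p was 0.418 without pairing, and 0.0766 with pairing but without pair 3. The paired edgeR test called 0 of 7 tested Adamts-like and tolloid genes (median log2 change 0.08). By its unadjusted p under 0.05, 2 were higher and 1 lower, beside 9.94% and 9.62% of all genes. Adamtsl3 averaged 7.80 ± 1.36 and 5.26 ± 1.15 CPM (SD, n = 3) with a paired adjusted p of 0.0912, and Adamtsl5 13.4 ± 1.88 and 17.9 ± 5.05 CPM with a paired adjusted p of 0.122. It also called 0 of 9 ADAM genes (median log2 change -0.0099), and 0 of them had an unadjusted p under 0.05; the smallest raw p there belonged to Adam19, at 160 ± 3.15 and 146 ± 14.6 CPM (SD, n = 3), and Adam8. DESeq2 and limma-voom called 0 genes of both lists. Of 19 tested substrates, 2 rose and 1 fell (median log2 change 0.03). Among these, the basement membrane gene Nid1 rose by a paired log2 change of 0.53 ± 0.10 (SE, adjusted p = 0.0319), while the microfibril gene Fbn2 fell from 135 ± 27.7 to 77.1 ± 18.3 CPM (adjusted p = 0.0155). Transcription factors and interferon response genes were read as well. Of the 12 AP-1 and ETS genes (median log2 change -0.0054), Etv5, an ETS factor, fell (105 ± 6.15 against 80.0 ± 7.66 CPM, SD, n = 3, paired adjusted p = 0.0471). This call was lost without any 1 of the pairs (adjusted p = 0.0578, 0.0570 and 0.0930). Of the 12 interferon response genes (median log2 change 1.46), Oasl1 and Cxcl10 rose (paired log2 change 1.65 ± 0.29 and 1.34 ± 0.29 (SE), adjusted p = 0.0291 and 0.0485) and 0 fell. Over all genes the paired test called 1.43% higher and 0.851% lower. These 2 were the only genes of the 12 that were higher in the knockout in all 3 pairs. In pair 1 the mean level of the 12 was lower in the knockout, at 3.28 log2 CPM beside 3.89 in the control. Without pair 3 the paired test called 0 genes of any list.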

How the data were processed

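Total RNA of 6 cultured libraries was sequenced by BGI's procedure, per the labels' protocols. The authors deposited raw counts, whole reads per Ensembl gene without normalization; STAR, featureCounts and DESeq with mm10 are named per the submitters' processing notes. Their versions, the annotation release and the strand setting were not given in the sources used here, so reads of overlapping, antisense or paralogous genes cannot be told apart. Columns were matched to samples by title. Symbols and positions came from GENCODE M21 (GRCm38), which held 55230 of the 55471 identifiers.

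Tests were run with edgeR 4.0.16 (R 4.3.3) after filterByExpr, which kept 13044 genes and at least 99.87% of each library's counts, and TMM scaling. Its quasi-likelihood p-values, all two-sided, were Benjamini-Hochberg adjusted over those genes and called at 0.05. CPM used TMM-scaled library sizes; where logged, 2 counts were added as prior. The test without pairing was the main one. Same-numbered libraries had correlations of deviations from group means of 0.15, 0.46 and 0.38, all above the limit of 0.1. The numbers were therefore taken as pairs from the data alone, and p-values of the paired test may be too small. Blocked values are printed where they change a call. Chi-square per degree of freedom between replicates was 21.6 to 40.0, so replicates differed by more than sampling noise. Alternatives were DESeq2 1.42.0, limma 3.58.1 (voom), other scaling and filters, and leaving out libraries or pairs. The steps were tested on simulated data.

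Members and gene lists were chosen with earlier results of these data known. Values per library are given for members that were called, had at least 20 CPM, did not overlap between groups or had the 4 largest changes, and for others where a level is described; from other lists, called genes or those with the smallest p are named, except some that are not reported here.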

Additional observations from a re-analysis of the deposited data

How the results depend on the processing

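Without pairing edgeR called 0 members, and so did scaling by DESeq2 size factors, limma-voom, DESeq2, no low-count filter, a minimum mean of 5 CPM, and each fit that left out 1 library. Over all genes the calls (higher and lower) were 62 and 12 with no low-count filter, 93 and 40 with DESeq2, and 187 and 111 with the replicate block; leaving out 1 library gave 0 to 30 higher and 0 to 1 lower, the 30 and 1 coming without knockout replicate 1. For the genes of all 7 other lists they were 8 and 1 with no filter, 5 and 1 with DESeq2, 8 and 2 with the replicate block, and 0 to 4 higher when 1 library was left out. With the block, leaving out pair 1 gave 507 and 207 calls, 4 members higher and 20 and 5 other listed genes. Leaving out pair 2 gave 140 and 54 calls, 5 members higher and 9 and 1 other listed genes. The 5 include Mmp13, which the filter let in through the knockout libraries, where it is high. Leaving out pair 3 gave 0. The block alone gave 2 members higher and changed no other member call.

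Of the 23 tested members, 9 kept their direction in all fits run. Changes of sign, in members and 2 other listed genes, were never called; their log2 changes over the fits that left out 1 library were -0.04 to 0.56 for Adam8, -0.07 to 0.07 for Adamts1, -0.05 to 0.22 for Adamts10, -0.36 to 0.35 for Adamts12, -0.03 to 0.62 for Adamts4, -0.11 to 0.39 for Adamts9, -0.0015 to 0.08 for Fosl1, -0.05 to 0.74 for Mmp10, -0.30 to 0.13 for Mmp11, -0.01 to 0.13 for Mmp14, -0.44 to 0.03 for Mmp16, -0.18 to 0.30 for Mmp19, -0.29 to 0.28 for Mmp28, -0.02 to 0.49 for Mmp3, -0.12 to 0.12 for Timp2. With the block and 1 pair left out the reversed values were -0.05 for Mmp14 (pair 1), -0.32 for Adamts12 (pair 1), 0.04 for Timp2 (pair 2), 0.53 for Mmp28 (pair 2), 0.06 for Adamts1 (pair 2), -0.12 for Mmp19 (pair 2), -0.15 for Adamts9 (pair 2), 0.05 for Timp2 (pair 3), 0.01 for Adamts1 (pair 3), 0.0035 for Adamts7 (pair 3). With limma-voom Mmp28 was at 0.01. The cause of these differences was not tested, and the control values of Adamts5, Adamts8, Mmp17 and Mmp13 rest on 5 to 18 counts per library.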
